A study of Mus musculus with 23 samples.

Results

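AP-1 is a dimeric transcription factor, and the 8 genes described here encode its JUN proteins (*Jun*, *Junb* and *Jund*), its FOS proteins (*Fos*, *Fosb*, *Fosl1* and *Fosl2*) and the related factor ATF3 (*Atf3*). The genes were taken by symbol from a table of 20599 genes, and all 8 were listed. Their mRNA was measured by RNA-seq in mouse β-TC6 cells, an insulin-secreting insulinoma line derived from a transgenic mouse. Unedited cells (WT) were compared with *Bmal1*-/- cells, which lack exon 8 of *Bmal1*, and with *Clock*-/- cells, which lack exons 6 and 7 of *Clock*, both deletions made by CRISPR–Cas9. Each genotype had 3 libraries, from cultures between passage 5 and passage 15 that received no treatment. Each knockout line was grown from single colonies and its 3 libraries came from separate wells, so p-values measure the spread between wells, and a change due to the deletion cannot be told apart from one particular to the colony. The *Bmal1*-/- colonies were selected for neomycin resistance and the *Clock*-/- colonies for puromycin resistance, which cannot be told apart from the deletions either. THRAP3, a nuclear protein that takes part in RNA splicing and in transcription, was also mapped on chromatin by ChIP-seq, in 2 libraries of WT and 2 of *Bmal1*-/- cells.

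JUN proteins pair with one another or with FOS proteins through leucine zippers, whereas FOS proteins need a JUN partner to bind DNA stably. JUN–FOS dimers bind the AP-1 site, and ATF3, alone or with JUN, also binds the related cyclic AMP response element (CRE). *Fos*, *Fosb*, *Junb*, *Jun* and *Atf3* are immediate early genes, transcribed within minutes of a stimulus and with unstable mRNA. In β cells, glucose, calcium entry and cyclic AMP induce several of them, and ATF3 is known as a stress-induced factor. *Jund* is known for steadier expression than the other JUN genes.

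Expression is given as TPM (transcript abundance scaled for gene length and to a common library total), which keeps no count of reads, so the depth behind each value is unknown. Differences are log2 fold changes of TPM + 1 from a single limma fit over 15031 genes, given with the standard error (SE) and a Benjamini–Hochberg adjusted p. Rises and falls are named where the adjusted p was under 0.01. The added 1 understates the change of genes at low TPM. Libraries of the same genotype correlated at 0.976 to 0.993 across genes and libraries of different genotypes at 0.918 to 0.952, and none stood apart from its group. β-cell marker genes together reached 54427 to 56833 TPM in WT, 39249 to 41993 in *Bmal1*-/- and 31663 to 37699 in *Clock*-/- libraries. Of these 10 genes, 1 (*Nkx6-1*) rose and 6 fell in *Bmal1*-/- cells (10% and 60%, against 18.4% and 21.0% of all genes). In *Clock*-/- cells 2 (*Nkx6-1* and *Pdx1*) rose and 6 fell (20% and 60%, against 9.50% and 14.4%). Among those falls, *Ins1* went from a mean of 2307 TPM in WT to 61.0 in *Clock*-/- cells. Markers of other islet endocrine cells (5 listed of 7), with *Gcg* and *Sst* the most abundant, summed to 569 to 587 TPM in WT, 101 to 111 in *Bmal1*-/- and 1514 to 1690 in *Clock*-/- libraries. Of the 3 tested, *Gcg* and *Sst* fell in *Bmal1*-/- cells. The other, *Irx2*, rose there from a mean of 11.5 to 33.5 TPM (log2 fold change 1.47, adjusted p = 2.56e-06). Fewer cells of a type and less RNA per cell cannot be told apart in such samples, and the part of these and the following shifts in the AP-1 values was not tested. Blood and vessel markers, mainly *Cd68*, summed to 9.97 to 11.1 TPM in WT, 1.28 to 1.65 in *Bmal1*-/- and 21.6 to 22.9 in *Clock*-/- libraries. Exocrine and duct markers (4 listed of 9) summed to 8.14 to 9.61, 1.12 to 2.27 and 3.21 to 5.66 TPM, and stromal markers (3 listed of 7) to at most 0.732 TPM in any library. The whole-gene level of *Arntl*, the annotation's name for *Bmal1*, averaged 3.79 ± 0.378 TPM in WT cells against 3.42 ± 0.104 in *Bmal1*-/- cells (SD, n = 3). *Clock* averaged 45.8 ± 4.48 TPM in WT cells against 36.9 ± 9.32 in *Clock*-/- cells. Neither passed the test, and removal of a few exons need not lower the level of the whole gene.

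To show the DNA just before the start sites, the 250 bases upstream of *Jun*, *Fos* and *Atf3* are printed from RefSeq on GRCm38.p6. These genes are shown because their windows hold letters within 1 mismatch of the CRE TGACGTCA, in capitals. Stretches with more mismatches are not marked, and use of the marked letters as binding sites was not tested. *Jun* lies at chr4:95052223-95052472 on the minus strand, *Fos* at chr12:85473640-85473889 on the plus strand and *Atf3* at chr1:191183334-191183583 on the minus strand.
Jun: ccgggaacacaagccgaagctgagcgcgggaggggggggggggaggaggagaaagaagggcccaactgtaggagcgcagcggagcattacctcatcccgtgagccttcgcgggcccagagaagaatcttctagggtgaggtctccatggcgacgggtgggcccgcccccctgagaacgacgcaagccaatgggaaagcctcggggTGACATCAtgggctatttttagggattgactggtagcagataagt
Fos: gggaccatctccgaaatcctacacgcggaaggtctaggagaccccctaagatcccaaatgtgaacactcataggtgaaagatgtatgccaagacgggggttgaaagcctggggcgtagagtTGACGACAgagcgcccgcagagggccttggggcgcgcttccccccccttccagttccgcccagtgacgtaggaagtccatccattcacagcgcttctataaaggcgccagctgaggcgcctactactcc
Atf3: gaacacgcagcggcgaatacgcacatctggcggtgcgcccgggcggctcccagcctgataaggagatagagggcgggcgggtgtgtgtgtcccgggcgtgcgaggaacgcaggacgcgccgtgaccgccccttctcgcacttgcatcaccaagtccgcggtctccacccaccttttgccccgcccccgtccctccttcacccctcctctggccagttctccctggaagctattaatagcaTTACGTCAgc
The letters in capitals are TGACATCA from 45 to 38 bases before the *Jun* start, TGACGACA from 129 to 122 bases before the *Fos* start and TTACGTCA from 10 to 3 bases before the *Atf3* start. An exact search on both strands covered 300 bases, 250 before and 50 after the RefSeq start, of the 7 member genes with an entry. *Fosl1* had none. No match was found to the AP-1 pattern TGANTCA, the CRE TGACGTCA or the E-box CACGTG (the site of BMAL1 and CLOCK). Neither the ETS motif CCGGAAG nor the CArG box was found. The 250 bases before the RefSeq *Jund* start end at 70697738, upstream of the GENCODE start at 70698949. Those before *Fosl2* lie wholly within a *Fosl2* exon. Sites farther upstream of the members were not searched. Over all 32851 mouse promoter windows of 300 bases the motifs, in the order named, occurred in 7.81%, 1.79%, 7.15%, 8.86% and 1.63%. The CRE with at most 1 mismatch was sought after the exact result was known, and only in the 250 bases before the start. There it occurred in 3 of 7 member windows and in 10.6% of all windows.

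*Jund* was the most abundant member in every genotype and *Fosl1* the least. In WT cells *Jund* was at 380 ± 9.97 TPM (SD, n = 3), followed by *Jun* at 46.2 ± 0.661 and *Junb* at 41.2 ± 1.90, and these 3 ranges did not overlap. *Fos* at 16.9 ± 1.25 and *Fosl2* at 15.2 ± 1.23 came next with overlapping ranges, then *Atf3* at 11.2 ± 1.88 and *Fosb* at 2.69 ± 0.345 TPM. In *Bmal1*-/- cells *Fosl2* at 8.22 ± 0.552 and *Atf3* at 4.47 ± 0.482 TPM stood above *Fos* at 2.53 ± 0.754, without overlap between these neighbours. In *Clock*-/- cells *Fos* at 10.1 ± 0.336 and *Atf3* at 9.42 ± 0.545 TPM overlapped, and *Fosl2* at 6.37 ± 1.67 lay below both. *Fosl1* stayed between 0 and 0.473 TPM in all 9 libraries and was left out of the fit by the filter on low values, so 7 of the 8 genes were tested.

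**Figure D1:**
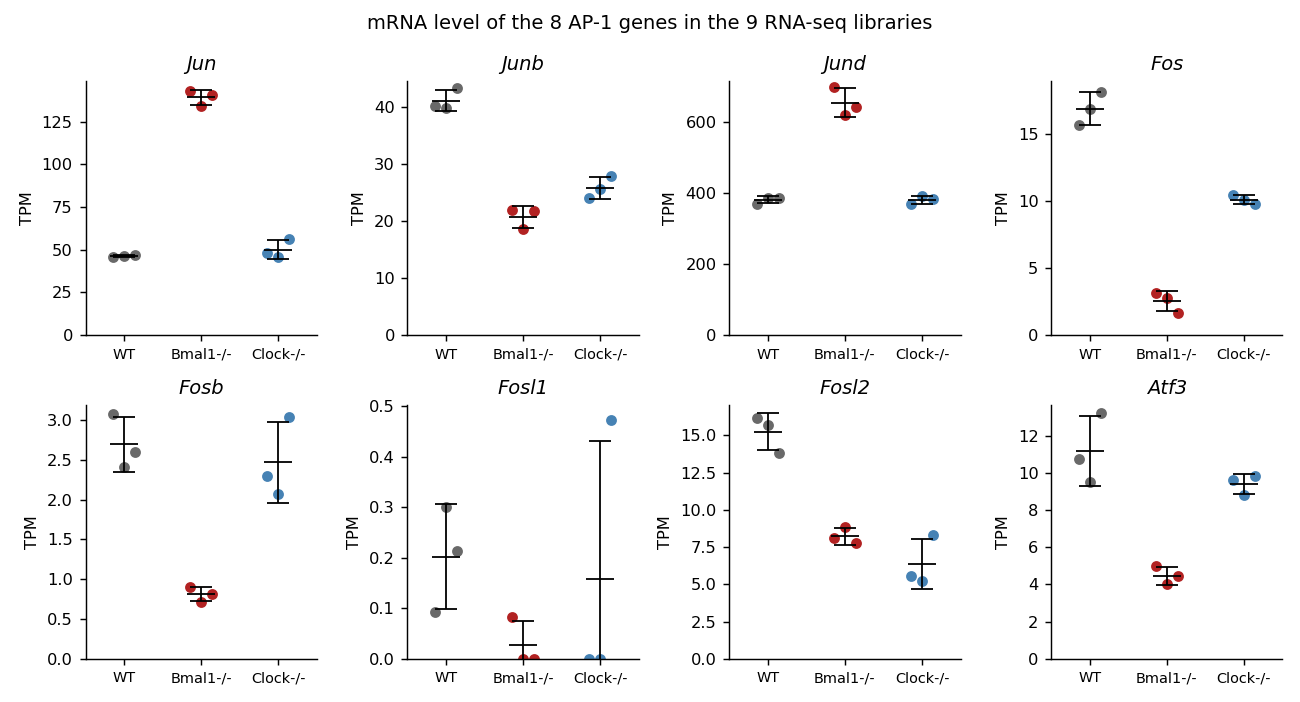
TPM of the 8 AP-1 genes in each of 9 libraries (points), with the genotype mean and SD (black), on a separate linear axis from 0 for each gene. *Jun* and *Jund* sit higher in the 3 *Bmal1*-/- libraries than in any other library, whereas *Fos*, *Fosb* and *Atf3* sit lowest there.

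To learn how loss of BMAL1 bears on these genes, *Bmal1*-/- cells were compared with WT. All 7 tested members passed the test, 2 upward and 5 downward. Among all genes tested, 18.4% rose and 21.0% fell. *Jun* and *Jund* rose, while *Junb*, *Fos*, *Fosb*, *Fosl2* and *Atf3* fell. Of these, 4 (*Jun*, *Fos*, *Fosb* and *Atf3*) also changed by more than 1 on the log2 scale, a size that together with the test was met by 11.8% of all genes. The median change over the 7 members was −0.96 on the log2 scale, against −0.04 over all genes tested.

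*Jun* encodes the founding member of the family and lies on chromosome 4 from 95049034 to 95052222 (GRCm38). It was at 45.6, 46.2 and 46.9 TPM in the WT libraries and at 143, 134 and 141 in the *Bmal1*-/- libraries. All *Bmal1*-/- values were above all WT values, a 3.01-fold higher mean. The log2 fold change was 1.57 (SE 0.0794, adjusted p = 3.67e-07).

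*Jund* (chromosome 8, 70698949 to 70700616) measured 369, 386 and 386 TPM in WT libraries against 698, 620.5 and 643 in *Bmal1*-/- libraries. Its mean was 1.72-fold higher, with a log2 fold change of 0.78 (SE 0.0610, adjusted p = 5.71e-06). The other JUN gene moved the opposite way. *Junb* (chromosome 8, 84974484 to 84978718) encodes a partner known to be a weaker transactivator than JUN. Its WT libraries were at 40.3, 39.9 and 43.4 TPM and its *Bmal1*-/- libraries at 21.9, 18.5 and 21.8, 1.98-fold lower in the mean. Its log2 fold change was −0.96 (SE 0.0911, adjusted p = 1.93e-05).

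*Fos*, the prototype of the FOS genes, showed the largest fall of the members in *Bmal1*-/- cells. The gene (chromosome 12, 85473890 to 85477273) reached 15.7, 16.9 and 18.1 TPM in WT libraries but 3.12, 2.79 and 1.68 in *Bmal1*-/- libraries. The mean was 6.68-fold lower in TPM, and the log2 fold change of TPM + 1 was −2.36 (SE 0.155, adjusted p = 1.74e-06). *Fosb* (chromosome 7, 19302696 to 19310051) encodes a FOS protein known in neurons for a stable short form. Levels were 3.08, 2.41 and 2.60 TPM in WT libraries and 0.903, 0.719 and 0.817 in *Bmal1*-/- libraries. The mean was 3.31-fold lower in TPM, with a log2 fold change of −1.02 (SE 0.147, adjusted p = 0.000276). Without WT replicate 1 or *Bmal1*-/- replicate 2 the log2 fold change was −0.95 or −0.99, past the test but under 1 in size.

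*Fosl2* encodes FRA2, which like FRA1, the product of *Fosl1*, lacks the strong activation domain of FOS. The gene (chromosome 5, 32135801 to 32157842) reached 16.2, 15.7 and 13.8 TPM in WT libraries but 8.08, 8.83 and 7.75 in *Bmal1*-/- libraries. Its log2 fold change was −0.81 (SE 0.151, adjusted p = 0.00134). *Atf3* (chromosome 1, 191170296 to 191218039) measured 10.8, 9.51 and 13.2 TPM in WT libraries against 4.97, 4.01 and 4.43 in *Bmal1*-/- libraries. Its log2 fold change was −1.14 (SE 0.131, adjusted p = 6.25e-05). Over all tested genes of chromosome 1 the median change in these cells was −0.35. With the chromosome median subtracted, the change of *Atf3* was −0.80 and it still passed the test.

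In *Clock*-/- cells, 3 of the 7 tested members fell and 0 rose, where 14.4% of all genes fell and 9.50% rose. At an unadjusted p under 0.05 the counts were also 3 and 0. The 3 were *Junb*, *Fos* and *Fosl2*, and only *Fosl2* changed by more than 1 on the log2 scale, as did 7.40% of all genes. The median change over the 7 members was −0.21, against −0.02 over all genes.

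*Fosl2* was at 5.57, 5.25 and 8.28 TPM in the *Clock*-/- libraries, all below the WT range. Its mean was 2.39-fold lower, with a log2 fold change of −1.16 (SE 0.151, adjusted p = 0.00027). Chromosome 5 genes had a median of −0.26 in this comparison, and with it subtracted the change of *Fosl2* was −0.89, still past the test but under 1 in size. *Junb* was at 24.0, 25.6 and 27.9 TPM, also without overlap with WT, and fell by 0.65 on the log2 scale (SE 0.0911, adjusted p = 0.000413).

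*Fos* was at 10.5, 10.1 and 9.79 TPM in *Clock*-/- cells, a mean 1.67-fold lower than in WT, with a log2 fold change of −0.68 (SE 0.155, adjusted p = 0.00661). This call was the least firm of those made. Of 18 alternative fits, 13 gave an adjusted p of 0.0103 to 0.0273, among them those without any single WT or *Clock*-/- library, with log2 fold changes of −0.74 to −0.63 over all 18.

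The other members did not pass the test in *Clock*-/- cells. *Jun* was at 48.2, 45.8 and 56.3 TPM (log2 fold change 0.11, SE 0.0794, adjusted p = 0.316), 2 of its 3 libraries lying above the WT range. *Jund* was at 368, 392 and 382 TPM, with a ratio of means of 1.00 to WT and an adjusted p of 0.996 (log2 fold change −0.00052, SE 0.0610). *Fosb* was at 2.30, 2.07 and 3.04 TPM (log2 fold change −0.10, SE 0.147, adjusted p = 0.647). *Atf3* was at 9.61, 8.81 and 9.85 TPM (log2 fold change −0.21, SE 0.131, adjusted p = 0.233), within or just below the WT range.

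**Figure D2:**
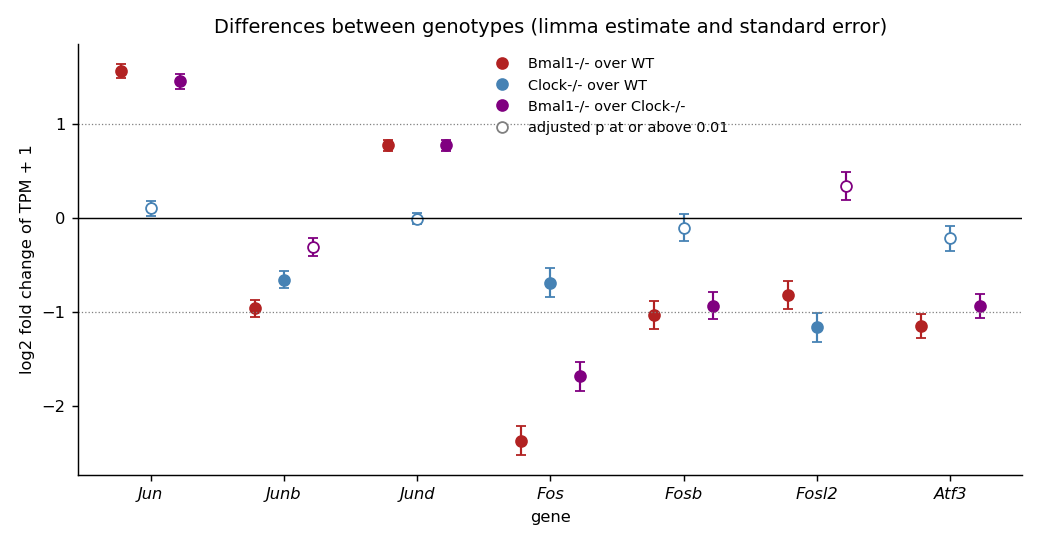
Log2 fold change of TPM + 1 (y axis) with SE for the 7 tested genes in the 3 comparisons of genotypes. Filled points have an adjusted p under 0.01, open points do not, and dotted lines mark a change of 1. *Jun* and *Jund* lie above 0 and *Fos*, *Fosb* and *Atf3* below 0 wherever *Bmal1*-/- cells enter.

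To test whether the knockout lines differed, *Bmal1*-/- cells were set directly against *Clock*-/- cells. Of the 7 members, 2 were higher and 3 lower in *Bmal1*-/- cells, where 22.8% of all genes were higher and 21.8% lower. *Jun* was higher by 1.46 (SE 0.0794, adjusted p = 5.23e-07) and *Jund* by 0.78 (SE 0.0610, adjusted p = 4.85e-06) on the log2 scale. *Fos* was lower, with a log2 fold change of −1.68 (SE 0.155, adjusted p = 1.35e-05). *Fosb* and *Atf3* were each lower by a log2 change of −0.93 (adjusted p = 0.000461 and 0.000207). Among these, *Jun* and *Fos* differed by more than 1 on the log2 scale, as did 14.5% of all genes. *Junb* (log2 fold change −0.30, SE 0.0911, adjusted p = 0.0163) and *Fosl2* (0.34, SE 0.151, adjusted p = 0.0747) missed the threshold, so a difference between the lines was not shown for them. For *Fosl2* the result turned on 1 library. Without *Clock*-/- replicate 3, which was at 8.28 TPM, the log2 fold change was 0.52 with an adjusted p of 0.00276.

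The summed levels show how the balance of the families differed between genotypes. In WT cells JUN family transcripts came to 468 ± 11.5 TPM (SD, n = 3), compared with 814 ± 45.7 in *Bmal1*-/- and 456 ± 14.2 in *Clock*-/- cells. For FOS family transcripts the sums were 35.0 ± 0.256, 11.6 ± 1.17 and 19.1 ± 2.18 TPM in the same order. The ratio of JUN to FOS transcripts was 13.0 to 13.7 in the WT libraries, 62.6 to 78.6 in *Bmal1*-/- and 21.6 to 26.5 in *Clock*-/- libraries, with 3 ranges that did not overlap. These sums rest on the genes tested above and on the untested *Fosl1*, and are given as descriptions.

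The make-up within each family also differed. *Jund* supplied 81.3% ± 0.400 of JUN transcripts in WT cells, 80.3% ± 0.535 after loss of *Bmal1* and 83.4% ± 1.34 after loss of *Clock*. *Jun* supplied 9.88% ± 0.127 in WT and 17.1% ± 0.487 in *Bmal1*-/- cells, while *Junb* supplied 8.80% ± 0.331 and 2.55% ± 0.154. The ratio of *Jun* to *Junb* was 1.12 ± 0.0385 in WT cells, against 6.73 ± 0.429 in *Bmal1*-/- cells and 1.94 ± 0.129 in *Clock*-/- cells. Within the FOS family, *Fos* supplied 48.3% ± 3.72 in WT and 21.5% ± 4.69 in *Bmal1*-/- cells, and *Fosl2* 43.5% ± 3.33 and 71.2% ± 4.67. In *Clock*-/- cells *Fosl2* supplied 33.0% ± 4.69 and *Fos* 53.5% ± 7.06 (SD, n = 3 throughout).

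**Figure D3:**
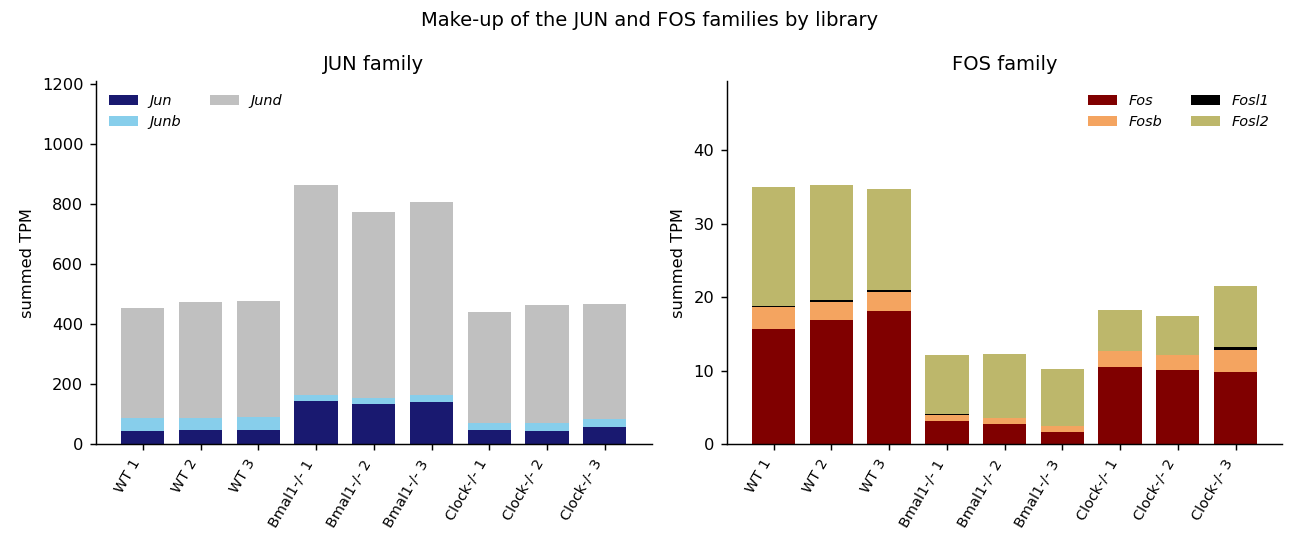
Summed TPM of JUN family genes (left) and FOS family genes (right) in each library, with each gene's part in its own colour; both bar axes start at 0 and differ in scale. JUN sums are highest in the 3 *Bmal1*-/- libraries (773 to 863 TPM), and FOS sums are lowest there (10.2 to 12.3 TPM).

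Some reads could come from genes on the opposite strand, since exons of *Jun*, *Junb*, *Jund* and *Fosl1* overlap those of *Junos*, *Prdx2*, *Gm11175* and *Ccdc85b*. The libraries were directional, but whether reads were counted by strand was not given in the sources used here. *Junos* stayed at means of 0.397 to 0.709 TPM in the 3 genotypes. Means in WT, *Bmal1*-/- and *Clock*-/- cells were 271, 285 and 316 TPM for *Prdx2*, above those of *Junb*. For *Ccdc85b* they were 101, 80.8 and 144 TPM, above those of *Fosl1*. In *Bmal1*-/- cells *Prdx2* (log2 fold change 0.07, adjusted p = 0.504), *Gm11175* (−0.52, adjusted p = 0.0316) and *Ccdc85b* (−0.32, adjusted p = 0.139) did not pass the test. Nor did they in *Clock*-/- cells (0.21, 0.11 and 0.49, adjusted p = 0.0644, 0.676 and 0.0465). The part of such reads in the member values was not tested.

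Genes whose level followed each member most closely over the 9 libraries were sought among 11634 genes by Pearson's r of log2 TPM + 1. These values are descriptions, since the libraries form 3 genotype groups. *Homer3* followed *Jun* (r = 0.997), *Ap5z1* followed *Junb* (r = 0.986) and *Ubald2* followed *Jund* (r = 0.997). *Tagln2* followed *Fos* (r = 0.993), *Sv2c* followed *Fosb* (r = 0.990), *Slc11a2* followed *Fosl2* (r = 0.990) and *Rrs1* followed *Atf3* (r = 0.991). *Tagln2* means were 186, 46.5 and 115 TPM in WT, *Bmal1*-/- and *Clock*-/- libraries, a fall in the same order as that of *Fos*. *Homer3* means were 7.74, 28.6 and 9.02 TPM.

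Other bZIP factors can pair with JUN, FOS or ATF3. Of the 12 tested, *Bmal1*-/- cells had 5 falls and 0 rises (7 and 0 at an unadjusted p under 0.05), with a median log2 fold change of −0.31. The falls make up 41.7%, against 21.0% of all genes, of which 18.4% rose. *Cebpb*, a C/EBP factor, averaged 57.2 ± 6.36 TPM in WT cells and 16.3 ± 0.915 in *Bmal1*-/- cells (log2 fold change −1.74, adjusted p = 5.22e-07). *Atf4*, the main effector of the integrated stress response, went from 895 ± 19.6 to 313 ± 10.1 TPM (log2 fold change −1.51, adjusted p = 5.11e-08), and is named here after its value was seen. After loss of *Clock*, 2 of 12 fell and 0 rose (7 lower and 1 higher at an unadjusted p under 0.05), a share of 16.7% near the 14.4% of all genes that fell. Without *Bmal1*-/- replicate 1 in the fit, 1 rose. The falls were *Cebpb* (log2 fold change −0.75, adjusted p = 0.000211) and *Ddit3*, which encodes CHOP (−0.64, adjusted p = 5.73e-05).

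The kinases that phosphorylate AP-1 proteins, JNK, ERK and p38 with their activators and scaffolds, were called at shares near those of all genes, apart from falls in *Clock*-/- cells. The 22 tested genes gave 4 rises and 6 falls in *Bmal1*-/- cells (18.2% and 27.3%, against 18.4% and 21.0% of all genes). In *Clock*-/- cells they gave 2 rises and 6 falls (9.09% and 27.3%, against 9.50% and 14.4%). Rises in *Bmal1*-/- cells numbered 7 without *Clock*-/- replicate 2 and also with the *Clock*-/- libraries left out of the fit, which outnumbers the 6 falls found in both cases. Rises in *Clock*-/- cells numbered 1 without WT replicate 1, WT replicate 2, *Clock*-/- replicate 1 or *Clock*-/- replicate 3. *Mapk3*, which encodes ERK1, averaged 186 ± 7.46 TPM in WT cells and 391 ± 6.88 in *Bmal1*-/- cells (log2 fold change 1.07, adjusted p = 3.40e-07). *Map3k12*, an upstream kinase of JNK, also rose there (0.91, adjusted p = 1.00e-04). The p38 genes *Mapk11* (−2.19, adjusted p = 1.64e-06) and *Mapk12* (−2.06, adjusted p = 4.42e-07) fell in *Bmal1*-/- cells, whereas *Mapk12* rose in *Clock*-/- cells (0.67, adjusted p = 0.000943). *Mapk10*, a JNK gene, fell in *Clock*-/- cells (−0.90, adjusted p = 0.000755).

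Of the MAP kinase phosphatases, which remove the activating phosphates, 3 of 8 tested rose and 5 fell in *Bmal1*-/- cells (37.5% and 62.5%, against 18.4% and 21.0% of all genes). The ERK-directed *Dusp6* (log2 fold change −2.00, adjusted p = 1.77e-06) and *Dusp5* (−1.02, adjusted p = 5.60e-07) fell, and *Dusp16*, known for acting on JNK, rose (1.30, adjusted p = 2.47e-05), as did *Dusp1* (0.63, adjusted p = 0.00177). With *Clock* deleted, 2 rose and 1 fell (25% and 12.5%, against 9.50% and 14.4%). There *Dusp4* and *Dusp16* rose (1.10 and 0.72, adjusted p = 0.00039 and 0.00177) and *Dusp10* fell (−0.84, adjusted p = 2.61e-05). The fall count in *Bmal1*-/- cells was 3 without WT replicate 1, and the rise count in *Clock*-/- cells was 1 without WT replicate 2.

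Among cofactors and turnover factors of JUN and FOS, 4 of 16 tested rose and 2 fell in *Bmal1*-/- cells, that is 25% and 12.5%, against 18.4% and 21.0% of all genes. *Srf*, which drives *Fos* through the serum response element, rose (log2 fold change 0.73, adjusted p = 8.78e-05), as did *Smarcd1*, a chromatin remodelling subunit (0.71, adjusted p = 0.000317). *Cops5*, first described as a JUN-binding coactivator, and *Fbxw7*, a ubiquitin ligase subunit for JUN, fell (−0.97 and −0.54, adjusted p = 1.42e-06 and 0.00102). In the *Clock* knockout limma called 0 of 16 (0 higher and 5 lower at an unadjusted p under 0.05), and 1 fall without *Clock*-/- replicate 2 or replicate 3.

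The other immediate early genes fell more often than they rose in both lines. The 24 tested genes gave 12 falls and 3 rises in *Bmal1*-/- cells (50% and 12.5%, against 21.0% and 18.4% of all genes), with a median log2 fold change of −0.33. They gave 14 falls and 1 rise in *Clock*-/- cells (58.3% and 4.17%, against 14.4% and 9.50%), with a median of −0.54. The nuclear receptor gene *Nr4a1* averaged 93.1 ± 3.50 TPM in WT cells, 4.75 ± 0.673 where *Bmal1* was deleted and 35.0 ± 2.62 where *Clock* was deleted (log2 fold change −4.04 and −1.39, adjusted p = 4.46e-09 and 5.02e-06). Its relative *Nr4a3* fell in both lines (−2.42 and −1.98, adjusted p = 4.35e-06 and 2.78e-05). *Rhob*, a small GTPase gene, rose in both (1.00 and 0.44, adjusted p = 6.88e-07 and 0.000255), and *Ier5* rose in *Bmal1*-/- cells (0.57, adjusted p = 0.00164).

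Of 28 textbook AP-1 targets, 15 passed the filter on low values, and these moved in both directions. In *Bmal1*-/- cells 4 rose and 5 fell (26.7% and 33.3%, against 18.4% and 21.0% of all genes), and the median log2 fold change was 0.03. For *Clock*-/- cells the counts were 3 and 3 (20% each, against 9.50% and 14.4%), and the median was 0.06. In *Bmal1*-/- cells *S100a6* (2.28, adjusted p = 4.04e-05) and *Tgfb1* (1.65, adjusted p = 9.72e-06) rose, while *Spp1*, which encodes osteopontin (−2.49, adjusted p = 7.99e-06), and *Hmox1*, which encodes heme oxygenase (−1.53, adjusted p = 3.16e-07), fell. Loss of *Clock* went with rises of the metallothionein genes *Mt1* and *Mt2* (1.25 and 1.10, adjusted p = 8.36e-05 and 6.93e-05), while *Spp1* and *Hmox1* fell (−1.84 and −0.36, adjusted p = 0.000102 and 0.0044).

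*Atf3* is induced in the integrated stress response, and the 20 tested genes of that response gave 11 falls and 2 rises in *Bmal1*-/- cells (55% and 10%, against 21.0% and 18.4% of all genes), with a median log2 fold change of −0.45. *Chac1* and *Trib3*, targets of ATF4, fell (−2.10 and −1.73, adjusted p = 4.31e-08 and 5.97e-08), while *Txnip* and *Ddit4* rose (1.36 and 0.72, adjusted p = 1.32e-05 and 0.00017). Against WT, *Clock*-/- cells had 5 falls and 3 rises among them (25% and 15%, against 14.4% and 9.50%), with a median of −0.05. There *Chac1* and the serine synthesis gene *Phgdh* rose (1.00 each, adjusted p = 7.27e-06 and 2.25e-05), and *Nupr1* and *Txnip* fell (−1.82 and −0.75, adjusted p = 4.54e-06 and 0.00105). The rise count there was 5 without *Clock*-/- replicate 2, and the fall count was 3 without WT replicate 2. *Atf4* and *Ddit3* are also in the list of bZIP factors above, so their falls are counted in both lists.

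**Figure D4:**
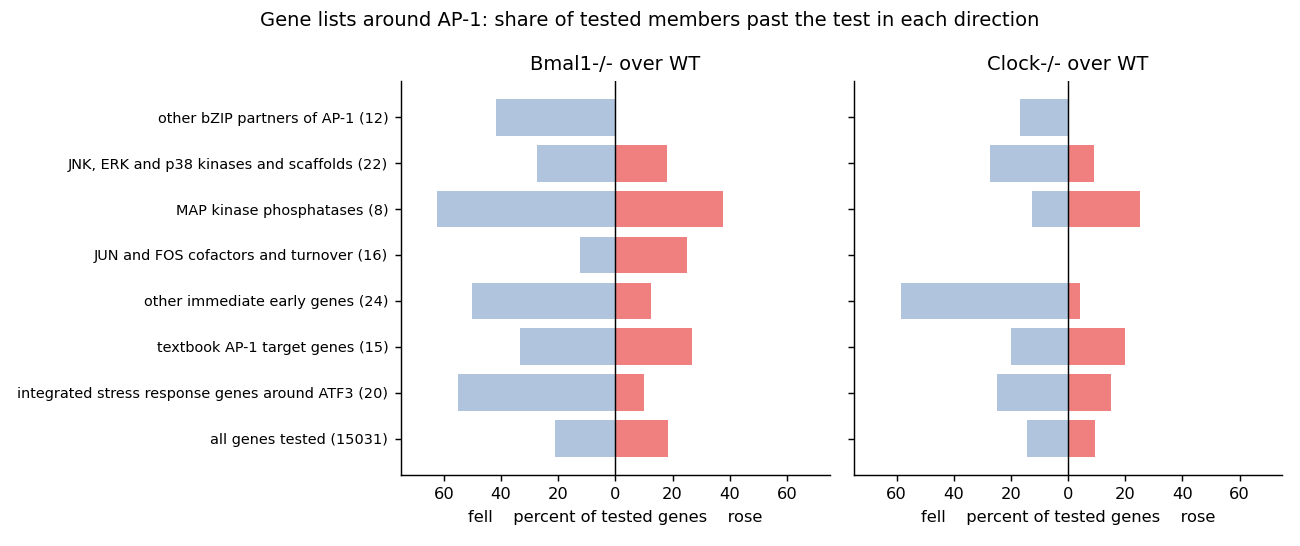
Percent of tested genes of each list (number in brackets) that rose (right of 0) or fell (left of 0) in *Bmal1*-/- (left panel) and *Clock*-/- cells (right panel) against WT, at an adjusted p under 0.01, with all genes tested in the last row. Of the other immediate early genes 50% fell in *Bmal1*-/- and 58.3% in *Clock*-/- cells, against 21.0% and 14.4% of all genes. The bZIP and integrated stress response lists share *Atf4* and *Ddit3*.

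THRAP3 is recruited to chromatin by other factors, and its peaks were looked up at the same 8 genes. The peak lists differed widely in length, with 808 and 6128 peaks in the WT libraries and 12949 and 12226 in the *Bmal1*-/- libraries, although the libraries held 12296107 to 14961095 tags. Tags within peaks made up 0.11% and 0.76% in WT and 1.86% and 1.67% in *Bmal1*-/- libraries. WT replicate 1 stands apart by its short list. A peak was counted at a gene if it lay within 5 kb of it, which held for 3.87% and 24.9% of the tested genes in the WT libraries and for 48.6% and 43.6% in the *Bmal1*-/- libraries.

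Of the 8 members, 1 had a peak in WT replicate 1, 1 in WT replicate 2, 3 in *Bmal1*-/- replicate 1 and 4 in *Bmal1*-/- replicate 2. With 2 libraries against 2, an exact test cannot give a two-sided p below 0.333, so no test was made. The peak signal is the tag count of a peak scaled by the authors to a total common to all libraries. *Jun* had a peak only in WT replicate 1, at chr4:95050238-95050450 over coding and untranslated sequence, with a signal of 11.4. *Jund* had a peak at its GENCODE start in *Bmal1*-/- replicate 1, at chr8:70698831-70699079 with a signal of 23.6, the highest at any member, and none there in the other libraries. Its fold over input was 4.51, at the low end of the 4.51 to 27.1 of member peaks in that library. The RefSeq start of *Jund* lies upstream of the GENCODE start, so the *Jund* peak lies outside the window searched for motifs.

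*Fosl2* had a peak just before its start in *Bmal1*-/- replicate 2, at chr5:32135563-32135807 with a signal of 16.0 and a fold over input of 4.8. *Atf3* had a peak near its start in both *Bmal1*-/- libraries, at chr1:191183345-191183593 with a signal of 11.8 and at chr1:191182901-191183145 with 8.02. These did not overlap each other. The first covers most of the *Atf3* sequence printed above, and neither covers its letters in capitals. *Fosb* had a peak 1495 bases beyond its end in *Bmal1*-/- replicate 2. Peaks near *Fosl1* in 3 libraries were closer to the starts of *Ccdc85b* or *Fibp*. *Junb* and *Fos* had no peak within 5 kb in any of the 4 libraries. In all, 11 peaks lay within 5 kb of a member and 4 of them overlapped a peak of another library, all 4 of them at *Fosl1*. Promoter peaks at *Jund*, *Fosl2* and *Atf3* were thus each found without an overlapping peak in a replicate.

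Farther out, 36 peaks lay within 50 kb of a member and 13 of these overlapped a peak of another library. Among these was a peak 28.6 kb downstream of the *Jun* start, in both *Bmal1*-/- libraries (signals 16.5 and 12.0) and in neither WT library, with *Jun* as the nearest coding gene start. Of all peaks in the *Bmal1*-/- libraries, 24.4% and 25.4% overlapped a WT peak, so most were in neither WT library. The *Jun* peak is printed because it was the peak nearest to *Jun* that replicated. It also holds a match, in capitals, to TGANTCA, a loose form of the AP-1 site with any middle base. It lies at chr4:95023515-95023759 (GRCm38, plus strand, limits of *Bmal1*-/- replicate 2) and overlaps no annotated exon.
Jun downstream peak: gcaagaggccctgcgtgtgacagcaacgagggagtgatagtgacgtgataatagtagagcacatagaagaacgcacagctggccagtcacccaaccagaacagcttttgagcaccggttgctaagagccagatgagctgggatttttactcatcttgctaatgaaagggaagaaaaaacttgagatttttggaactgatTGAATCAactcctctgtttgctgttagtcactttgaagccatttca
The match TGAATCA lies from 95023714 to 95023720, 80 bases from the peak centre. Its middle base fits TGANTCA, but it does not match TGACTCA on either strand.

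Across all THRAP3 peaks, the loose AP-1 pattern TGANTCA was sought in the central 200 bases. It was found in 33.9% of peaks in WT replicate 1, 15.9% in WT replicate 2, 10.8% in *Bmal1*-/- replicate 1 and 12.1% in *Bmal1*-/- replicate 2. TGACTCA alone, on either strand, was found in 29.6%, 13.0%, 8.52% and 9.34%, in the same order. Sites below are matches to TGANTCA. This pattern occurred in 5.48% of 200-base windows before all promoters, whereas 21.7% to 34.8% of the peaks in a list lay within 1 kb of a coding start. Sites gathered at the peak centre, with 11.3, 3.91, 2.73 and 3.08 times as many per 50 bases as at 400 to 500 bases from it. The lists differ in length, and in the 808 peaks of highest signal of each list the share was 33.9%, 32.2%, 27.8% and 30.1%, in the same order. Peaks farther than 1 kb from a coding start held the site more often (39.0%, 20.2%, 14.5% and 15.6%) than those nearer (15.4%, 5.29%, 3.75% and 4.18%). Of the nearer peaks, only those of WT replicate 1 held the site more often than the 5.48% of promoter windows. These splits were chosen after the data had been seen, and the letters do not show which factor bound.

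**Figure D5:**
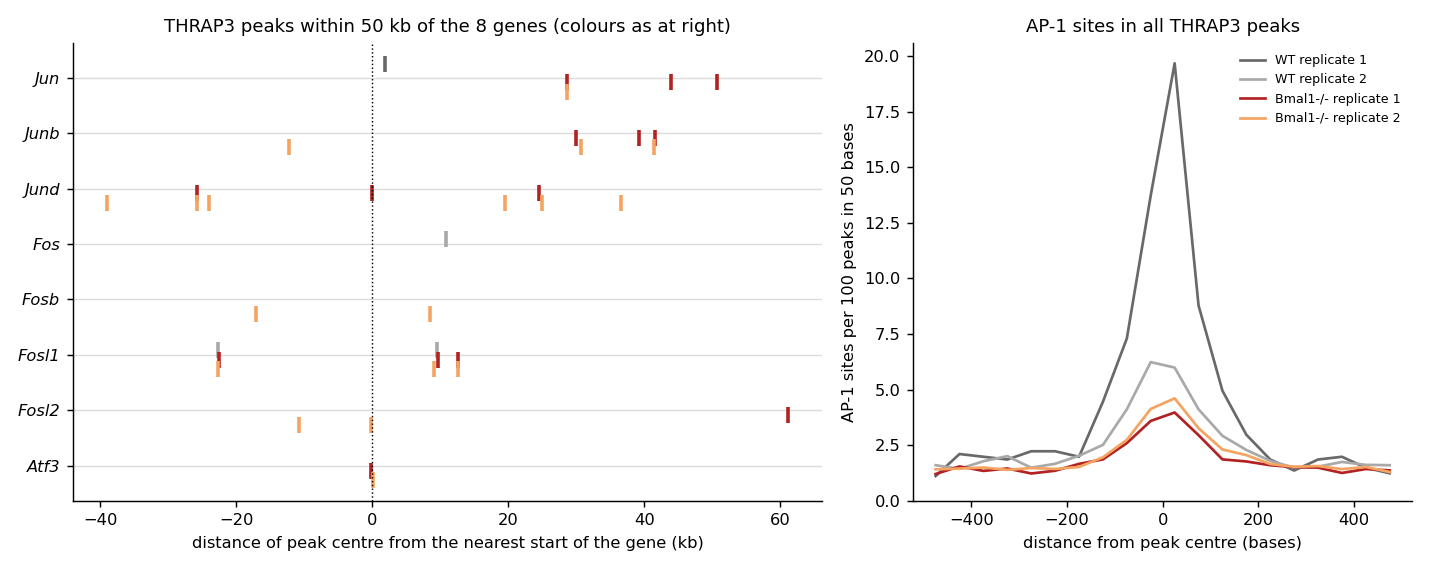
Left, each THRAP3 peak within 50 kb of a member gene as a bar at its distance in kb from the nearest annotated start of that gene, along the gene's strand, with 1 line of bars per library. Right, AP-1 sites (TGANTCA) per 100 peaks in steps of 50 bases around the centre of all peaks of each library. Bars at 0 for *Jund*, *Fosl2* and *Atf3* come from *Bmal1*-/- libraries, and all 4 curves are highest at the centre.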

How the data were processed

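RNA-seq values are the authors' TPM as deposited, made per the study's methods with STAR 2.5.0 and featureCounts 1.5.3 on mm10, in 3 libraries per genotype. No count model was used, since TPM keeps no depth. All 9 libraries entered a single limma (3.58.1, R 4.3.3) fit of log2 (TPM + 1) with a mean–variance trend, restricted to the 15031 genes that reached 1 TPM in 3 or more libraries. Members and lists were chosen with earlier results of these data known. The text names all 8 members and, per list and knockout, the 2 largest rises and falls past the test at a mean TPM of at least 5, plus *Atf4*, and leaves out a few that this rule would add. The main fit did not pair libraries by replicate number. Deviations from group means correlated at −0.208 to 0.0742 between like-numbered libraries of different genotypes, and at −0.163 to 0.212 between differently numbered ones. These values cannot tell whether libraries were prepared in numbered batches.

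THRAP3 peaks are the authors' HOMER lists, called per library on reads aligned with Bowtie2 2.2.4. The deposited signal is tags per peak scaled by the authors to a common total, and peaks were ranked by it within a list. The deposited score broke ties and gave the cut at the list median. The deposited fold over input was not compared between libraries. Peak positions were compared with GENCODE vM21 on GRCm38, which shares mm10 coordinates, in Python 3.11.15. Motifs were exact matches on either strand, except for a CRE search that allowed 1 mismatch. The test was tried on simulated data. Deposited tables of the authors' own DESeq2 1.22.1 comparisons (fold changes and p-values between genotypes) were not used, and eCLIP and ChIP input libraries were not analysed here.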

Additional observations from a re-analysis of the deposited data

Results flagged for a closer look

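For 5 of the 7 tested AP-1 genes the *Bmal1*-/- and *Clock*-/- lines differed by the direct test, with the shared WT libraries cancelling out. So did 22.8% (higher in *Bmal1*-/- cells) and 21.8% (lower) of all genes. A difference due to the deletions cannot be told apart here from one particular to the colonies. The difference, *Bmal1*-/- minus *Clock*-/- on the log2 scale of TPM + 1, was 1.46 for *Jun* (higher in 3 of 3 *Bmal1*-/- libraries than in any *Clock*-/- library) and 0.78 for *Jund* (likewise 3 of 3). It was −1.68 for *Fos*, −0.93 for *Fosb* and −0.93 for *Atf3*, each lower in 3 of 3 *Bmal1*-/- libraries. All 5 kept an adjusted p under 0.01 in limma under each alternative that could be fitted. *Fos* is the only one of the 5 that also passed the test in *Clock*-/- cells against WT, by the call that most alternatives lost.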

How the results depend on the processing

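In *Bmal1*-/- against WT, the 7 tested members kept direction and an adjusted p under 0.01 in all 18 alternatives (17 for *Fosb*, which the stricter filter removes), and so did *Junb* and *Fosl2* in *Clock*-/- cells. *Fos* in *Clock*-/- cells did so in 5 of 18. Members that also changed by more than 1 in *Bmal1*-/- cells numbered 3, in place of 4, with the chromosome median subtracted, with the stricter filter and without WT replicate 1 or *Bmal1*-/- replicate 2. With the chromosome median subtracted, 0 members fell by more than 1 in *Clock*-/- cells and *Atf3* there changed sign to 0.0458. *Jund* in *Clock*-/- cells, near 0, changed sign to 0.035 with median-of-ratios scaling, and without single replicates lay between −0.0225 and 0.0234. That scaling also called *Junb* between the knockout lines (−0.36, adjusted p = 0.00852, against 0.0163; the range over alternatives was 0.00852 to 0.0658). With a pseudocount of 0.1, 4 members differed between the knockout lines by more than 1, in place of 2. Over all genes in *Clock*-/- cells, rises numbered 936 to 1596 without single replicates (939 without WT replicate 2, 936 without *Clock*-/- replicate 1, against 1428), and calls numbered 730 at a TPM of at least 5, where fewer genes were tested, against 1113. Apart from these, causes were not tested. The replicate block lost *Fos* in *Clock*-/- cells (adjusted p = 0.0157) and changed no other member's call; over all genes it gave 2352 rises and 2724 falls in *Bmal1*-/- cells (2773 and 3153 without it) and 1095 and 1706 in *Clock*-/- cells (1428 and 2162 without it).

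Members with a THRAP3 peak numbered 2, 6 and 7 in WT replicate 2 and *Bmal1*-/- replicates 1 and 2 within 50 kb (47.3%, 75.05% and 71.2% of tested genes), and 0 in WT replicate 2 within 1 kb (21.8%). At a score at or above the list median they numbered 0 in WT replicate 2 (15.4%) and 2 in *Bmal1*-/- replicate 2 (26.8%). Depth is unknown for TPM, and levels under 1 TPM, such as those of *Fosl1*, could not be compared.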
